A study of Mus musculus with 4 samples.

Results

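The genes of sterol and fatty acid synthesis, together with the factors that control them, were examined in activated mouse CD4+ T cells before and after exposure to interferon alpha (IFNa). The list held 38 genes chosen by symbol for their role and not by a cutoff on the measured values. The choice was made with earlier results of these data known, so counts over the list are descriptions and not independent support. Of these, 36 had an array row that named them alone, out of 19752 genes with such a row, and all 36 were bright enough to be tested. Acat2 and Acsl3 had no row of their own and were not analysed here. By role, the 36 genes comprised 6 of 7 listed enzymes of the mevalonate pathway, 11 of 11 enzymes of the sterol branch, 11 of 12 genes of fatty acid synthesis, 6 of 6 in a group of regulators that also held the sterol carrier Stard4, and 2 of 2 cholesterol efflux transporters.

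Cholesterol is built from acetyl-CoA through mevalonate and the isoprenoid farnesyl diphosphate, which is joined to make squalene and then cyclised and trimmed to cholesterol. The genes of this route and of fatty acid synthesis are switched on by the sterol regulatory element-binding proteins (SREBPs), membrane-bound transcription factors that the escort protein Scap carries to the Golgi when sterols are scarce and that Insig proteins hold back when sterols are plentiful. Excess sterol acts through the liver X receptors (LXRs), which raise the efflux transporters Abca1 and Abcg1. T cells that have been activated to divide rely on this programme to supply new membrane.

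RNA came from splenic CD4+ T cells of 6 week old male C57BL/6 mice, enriched by negative selection and then stimulated through CD3 and CD28 on beads for 48 h. There were 2 baseline arrays of activated cells without IFNa, 1 array after 2 h with IFNa at 100 U/ml and 1 array after 8 h with the same dose. Every array carried RNA of activated cells. For both IFNa samples a preparation note lists Janus kinase inhibitors with a plus or minus sign, whereas their remaining labels give IFNa as the sole agent. An untreated control cultured for an extra 2 h or 8 h was not analysed here, and the effect of IFNa cannot be told apart from that of further culture. The labels leave unsaid if each baseline array had its own mouse or culture. The p-values therefore reflect the distance between 2 baseline arrays, possibly a technical one, and take the single array of each IFNa time, which has no replicate check, to be equally variable.

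The median deposited intensity of the 4 arrays lay between 176.2 and 199.5, and the number of arrays limits the precision. Upper quartiles ran from 573.5 (8 h) through 669.2 (baseline 1) and 729.8 (baseline 2) to 769.2 (2 h). Lower quartiles had the reverse order: 87.8 (8 h), 81.8 (baseline 1), 70.14 (baseline 2) and 66.83 (2 h). Intensities at 8 h were thus the most compressed between these quartiles. How far this compression shaped the differences of bright and dim genes, the marker sums below among them, was not tested. The labelled treatment was visible in the 4 of 6 interferon-induced check genes with a row of their own. Ifit1, Irf7 and Usp18 rose at both times, with log2 differences of 2.92 to 3.23. Rtp4 rose by 4.14 and 4.24. Rtp4 lay under the array medians at baseline (6.59 and 6.34) and passed the brightness filter only through the IFNa arrays, so its test does not stand apart from that choice. All 8 measured T cell markers, among them Cd3e and Cd4, were bright on every array (log2 intensity of 10.57 to 13.15). Of 32 measured markers of other cell types, 18 were dim on all arrays and 14 were tested, and none passed the test in any comparison (limma). Some were well above the array medians, with Cd79b of B cells at 9.99 to 10.26 and Cd8b1 of CD8 T cells at 9.57 to 9.87 (log2). The summed intensity of the 5 measured B cell markers was 2270 and 2295 on the baseline arrays, 2249 after 2 h and 2929 after 8 h, where Ms4a1, a B cell surface protein, stood at a log2 difference of 0.75 (adjusted p = 0.0881). For the other classes the sums, in the same order, were 1112 and 1001, 921 and 1191 for CD8 T cells, 689 and 654, 809 and 584 for NK cells, and 1382 and 1228, 1177 and 1300 for myeloid cells. They were 455 and 383, 362 and 498 for dendritic cells, and 908 and 895, 993 and 1071 for neutrophil, erythroid and platelet markers. Their part in the results was not tested, and in bulk RNA a smaller share of expressing cells and less RNA per cell cannot be told apart.

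Promoter sequences are shown because SREBPs act on a short element close to the start of their target genes. RefSeq promoters of the build GRCm38.p6, from 250 bases before to 50 after the start, were matched by symbol for 28 of the 36 genes. The sterol regulatory element was searched as TCACNCCAC on both strands. Genes can have more than 1 promoter in the table, and a gene was counted when any of them held the element. This was so for 1 of these 28 genes, Hmgcs1, against 1.44% of all genes in the table, 1.42% of the tested genes and 1.24% of all 32851 promoters of this length. With up to 1 mismatch at the fixed letters, a search added after the exact one had been seen, 11 of 28 genes held a match, against 26.7% of all genes in the table and 29.1% of the genes tested on the arrays. Among genes with a promoter, 5 of the 10 lower at 8 h than at baseline and 6 of the 18 others held such a match. The promoters below are a selection from these 10. They belong to Hmgcs1, with the exact element, to Cyp51 and Hsd17b7, which held it with a mismatch, and to Idi1, which held neither. Idi1 had the largest fall among the mevalonate enzymes. Msmo1 and Insig1, which held a match, and Fads2, Lss, Acaca and Fasn, which held none, are not printed. Capitals mark every stretch that matches with up to 1 mismatch.
Hmgcs1, chr13:119690101-119690400, plus strand: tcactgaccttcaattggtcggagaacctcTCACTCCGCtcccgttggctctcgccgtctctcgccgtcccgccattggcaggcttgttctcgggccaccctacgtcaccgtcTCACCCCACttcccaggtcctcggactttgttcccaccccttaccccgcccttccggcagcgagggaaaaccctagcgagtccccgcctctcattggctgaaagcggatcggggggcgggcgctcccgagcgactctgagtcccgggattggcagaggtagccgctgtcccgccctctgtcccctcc
Cyp51, chr5:4104648-4104947, minus strand: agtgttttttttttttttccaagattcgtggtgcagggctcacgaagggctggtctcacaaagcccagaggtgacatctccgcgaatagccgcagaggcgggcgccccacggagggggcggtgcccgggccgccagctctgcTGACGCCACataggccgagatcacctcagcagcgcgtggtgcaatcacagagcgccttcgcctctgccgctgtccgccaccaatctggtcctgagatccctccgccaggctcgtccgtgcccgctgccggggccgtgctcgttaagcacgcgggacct
Hsd17b7, chr1:169969156-169969455, minus strand: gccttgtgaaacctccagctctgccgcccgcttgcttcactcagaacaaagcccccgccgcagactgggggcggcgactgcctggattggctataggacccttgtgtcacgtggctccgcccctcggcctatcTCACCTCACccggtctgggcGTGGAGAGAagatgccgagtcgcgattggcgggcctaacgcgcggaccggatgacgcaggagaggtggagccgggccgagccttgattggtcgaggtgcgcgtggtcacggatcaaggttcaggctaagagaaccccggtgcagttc
Idi1, chr13:8885356-8885655, plus strand: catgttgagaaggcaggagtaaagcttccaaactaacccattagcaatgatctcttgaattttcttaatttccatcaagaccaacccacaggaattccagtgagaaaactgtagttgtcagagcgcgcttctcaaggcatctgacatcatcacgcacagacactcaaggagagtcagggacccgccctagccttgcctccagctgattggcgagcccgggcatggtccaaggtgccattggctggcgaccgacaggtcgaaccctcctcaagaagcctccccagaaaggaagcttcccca

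In Hmgcs1 the exact match TCACCCCAC began at position −137 relative to the start, and a looser match began at −220. The match in Cyp51 began at −108, and those in Hsd17b7 at −117 and −97. An E-box that SREBPs can also bind, TCACGTGA, lay in a promoter of 0 of the 28 genes, against 2.35% of the tested genes and 0.974% of all promoters. The CCAAT box, the letters CCAAT on either strand, lay in 23 of 28 genes and in 42.5% of the tested genes, and the GC box GGGCGG in 23 of 28 and in 68.9%. Both are read by factors that work beside SREBPs at many promoters. The core of the interferon-stimulated response element lay in a promoter of 1 of 28 genes, Ebp, against 3.61% of the tested genes. These matches are descriptions of the printed window and not evidence of binding.

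The comparison of 8 h with baseline asks how the lipid synthesis programme stood late after IFNa. Fewer than 1 in 2 of the genes passed the test, and all that passed were lower. Of the 36 genes, 16 fell and 0 rose (limma on log2 intensities, Benjamini-Hochberg adjusted p under 0.05 over all 10699 tested genes), where 3.35% of all tested genes were called lower and 0.654% higher. At an unadjusted p under 0.05, 27 were lower and 1 higher, against 19% and 5.63% of all tested genes. The 8 h array lay below both baseline arrays for 31 of the 36 genes and above both for 1, against 55.9% and 24.4% of all tested genes. A drop of at least 2-fold was seen for 15 of the 36 and a rise of that size for 0, against 2.6% and 0.57% of all tested genes. The median log2 difference of the 36 genes was −0.90, beside −0.16 for all tested genes. Of the 10 tested genes with the lowest differences on the whole array, 5 belonged to this list, namely Fads2, Scd1, Idi1, Lss and Msmo1. Since the list was chosen with earlier results of these data known, these counts and shares describe it and do not test it. The list was also bright, with a mean log2 intensity of 10.25 in baseline 1 and 10.53 in baseline 2. The shares of all tested genes were not matched to it for brightness. After quantile normalization 21 of the 36 were called lower and 1 higher, beside 8.42% and 6.22% of all tested genes, and all 16 calls were kept.

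**Figure D1:**
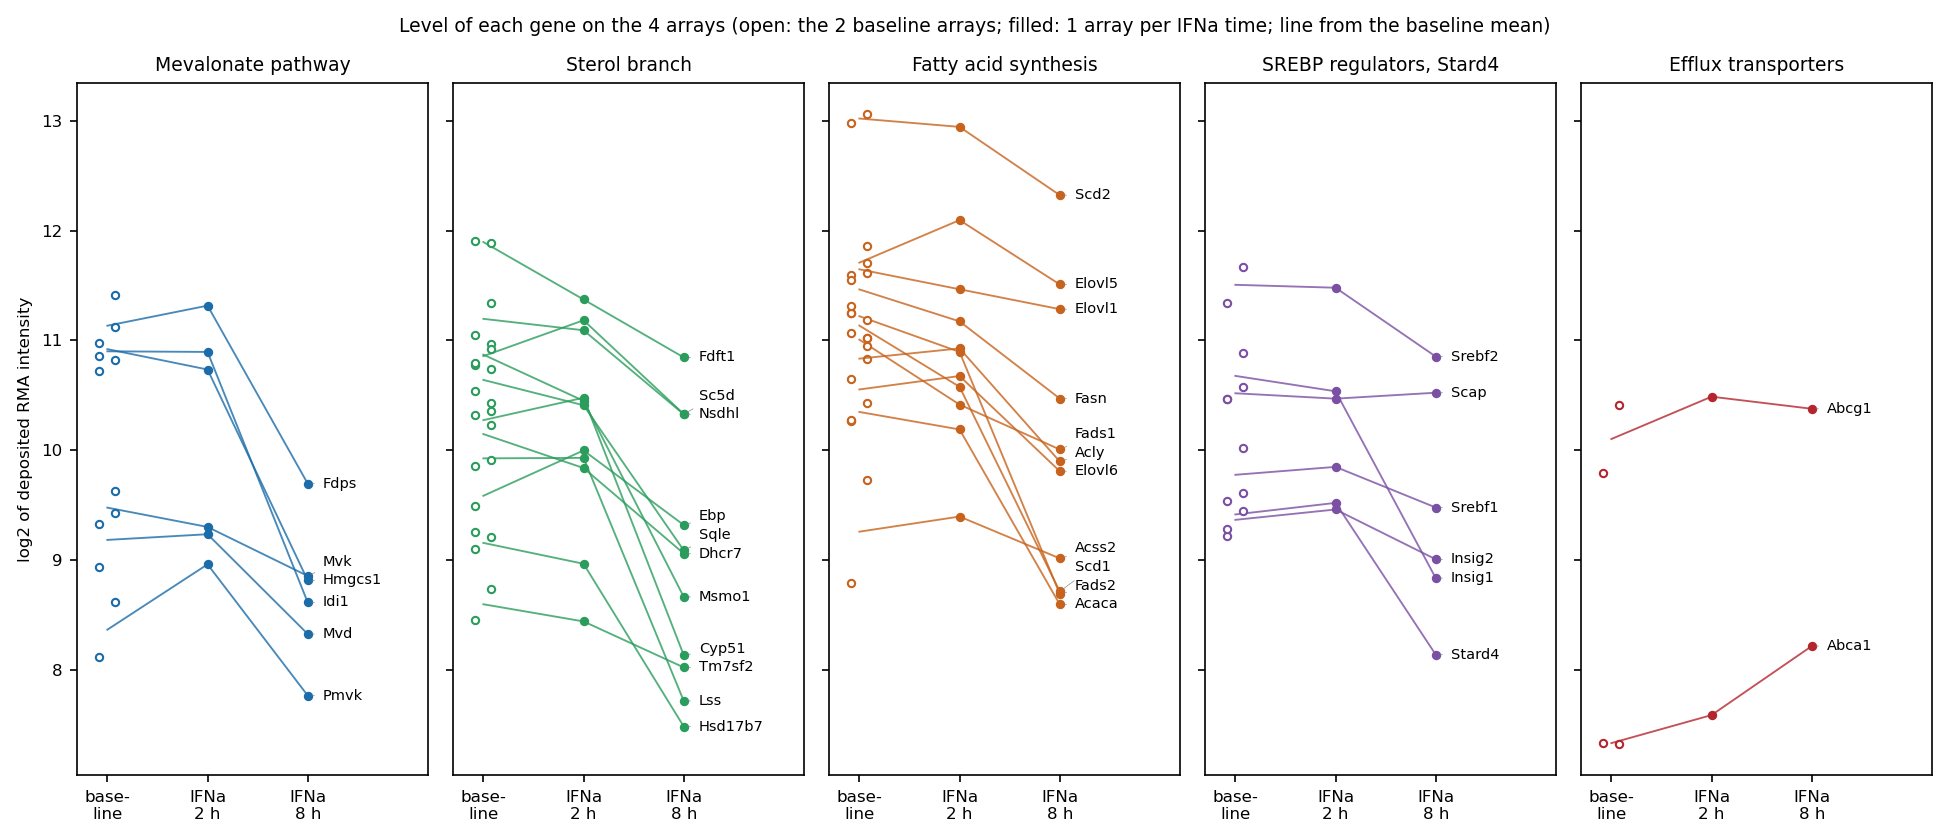
Log2 of the deposited intensity (vertical axis) of each of the 36 genes by time with IFNa, in 5 panels by role; open points are the 2 baseline arrays, filled points the single IFNa arrays, and lines start at the baseline mean. Most lines are nearly level to 2 h and drop by 8 h, while Scap is flat and Abca1 climbs from 7.34 to 8.22.

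The mevalonate enzymes fell at 8 h in 3 of 6 measured cases, and the other 3 were lower without passing the test. Idi1, which interconverts the isoprenoid units isopentenyl and dimethylallyl diphosphate, had log2 intensities of 10.98 and 10.83 at baseline, then 10.90 at 2 h and 8.62 at 8 h. The first 3 of these arrays were close together and only the 8 h array was low. The 8 h level was 4.87-fold below the baseline mean of 10.90 ± 0.11 (SD, n = 2; log2 difference −2.28, SE 0.21, limma adjusted p = 0.00139). A second row for Idi1 on the array gave −2.36. Hmgcs1, which condenses acetyl-CoA with acetoacetyl-CoA, showed 10.72 and 11.12 at baseline, then 10.74 at 2 h and 8.82 at 8 h, a 4.30-fold fall (−2.10, SE 0.23, adjusted p = 0.0037). Its 2 h array lay between the baseline arrays and its 8 h array far below them. Fdps, which makes farnesyl diphosphate, the last step shared by sterols and other isoprenoids, showed 10.86 and 11.41 at baseline, then 11.32 at 2 h and 9.70 at 8 h (−1.44, SE 0.26, adjusted p = 0.0264). Its call ended when genes were not filtered for brightness (adjusted p = 0.0571, range over the alternatives 2.15e-05 to 0.0571).

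The kinases and the decarboxylase between them moved less. Mvk, which phosphorylates mevalonate, stood at −0.62 (SE 0.22, adjusted p = 0.141), Pmvk, which adds the next phosphate, at −0.60 (SE 0.25, adjusted p = 0.189), and Mvd, which makes isopentenyl diphosphate, at −0.86 (SE 0.25, adjusted p = 0.0935). All 3 had an 8 h array below both baseline arrays. Pmvk was the gene with the widest swing among them, with 8.12 and 8.62 at baseline, then 8.96 at 2 h and 7.77 at 8 h. The group's median at 8 h was −1.15, beside −0.16 for all tested genes.

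In the sterol branch 6 of 11 enzymes fell at 8 h, and the remaining 5 also had negative differences that did not pass. Lss, the cyclase that turns oxidised squalene into lanosterol, had log2 intensities of 9.50 and 10.36 at baseline, then 9.93 at 2 h and 7.72 at 8 h. Its baseline arrays were the furthest apart of the group, yet the 8 h array was well under both. The fall was 4.61-fold from a baseline of 9.93 ± 0.61 (SD, n = 2; log2 difference −2.21, SE 0.33, adjusted p = 0.0133). Msmo1, a methyl sterol oxidase, showed 10.78 and 10.97 at baseline, then 10.45 at 2 h and 8.67 at 8 h (−2.20, SE 0.21, adjusted p = 0.00166). Cyp51, the lanosterol demethylase that acts earlier, showed 10.32 and 10.23 at baseline, then 10.48 at 2 h and 8.14 at 8 h (−2.14, SE 0.20, adjusted p = 0.00166). At 2 h Msmo1 lay below both baseline arrays and Cyp51 above both, and at 8 h both were far below them.

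Hsd17b7, a 3-keto sterol reductase, fell from 9.11 and 9.21 at baseline to 7.49 at 8 h (−1.67, SE 0.20, adjusted p = 0.00592), with 8.97 at 2 h. Sqle, the squalene epoxidase and a control point of the route, went from 10.54 and 10.74 to 10.41 at 2 h and 9.09 at 8 h (−1.55, SE 0.21, adjusted p = 0.00875). Fdft1, squalene synthase, the first enzyme committed to sterols, showed 11.91 and 11.88 at baseline, then 11.37 at 2 h and 10.85 at 8 h (−1.05, SE 0.20, adjusted p = 0.0318). For Fdft1 the 2 h array already lay midway between the baseline and the 8 h level, unlike Hsd17b7 and Sqle, whose drop came mostly after 2 h. A second row for Fdft1 gave −1.25 at 8 h. Without the filter for brightness the call of Fdft1 ended (adjusted p = 0.0698, range over the alternatives 0.00194 to 0.0698).

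The 5 sterol enzymes that did not pass at 8 h act after lanosterol has formed, as do Cyp51, Msmo1 and Hsd17b7, which fell. Dhcr7, which makes cholesterol from 7-dehydrocholesterol, stood at −1.09 (SE 0.26, adjusted p = 0.0594), and Nsdhl, which removes a carboxyl group from the sterol ring, at −0.87 (SE 0.22, adjusted p = 0.0651). Both were called lower after quantile normalization and with arrays centred on their medians (adjusted p ranges over the alternatives 0.00272 to 0.122 and 0.0198 to 0.135). Tm7sf2, a sterol reductase, stood at −0.57, Sc5d, a sterol desaturase, at −0.53, and Ebp, a sterol isomerase, at −0.27. For Ebp alone among the sterol enzymes, the 8 h array (9.32) lay between the baseline arrays (9.26 and 9.91). The group's median was −1.09, beside −0.16 for all tested genes.

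Fatty acid synthesis genes fell in 5 of 11 measured cases, with the lowest differences in the desaturases Fads2 and Scd1 and in Acaca. Fads2, the delta-6 desaturase that opens the path to polyunsaturated fatty acids, had log2 intensities of 11.25 and 11.19 at baseline, then 10.90 at 2 h and 8.70 at 8 h. The order of arrays was baseline, then 2 h, then 8 h, with the baseline pair almost equal. The 8 h level was 5.76-fold under the baseline mean of 11.22 ± 0.05 (SD, n = 2; log2 difference −2.53, SE 0.20, adjusted p = 0.000674), the lowest adjusted p of the 36 genes. Scd1, the stearoyl-CoA desaturase that makes monounsaturated fatty acids, showed 11.25 and 11.03 at baseline, then 10.58 at 2 h and 8.72 at 8 h, a 5.35-fold fall (−2.42, SE 0.21, adjusted p = 0.0013). Fads1, the delta-5 desaturase, showed 11.07 and 10.95 at baseline, then 10.42 at 2 h and 10.01 at 8 h (−0.999, SE 0.20, adjusted p = 0.0383). All 3 desaturases lay below both baseline arrays at 2 h and lower still at 8 h. Scd2, a second stearoyl-CoA desaturase, was a milder case, with 12.98 and 13.06 at baseline, then 12.94 at 2 h and 12.32 at 8 h (−0.70, SE 0.20, adjusted p = 0.0936).

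Acaca, which makes malonyl-CoA and sets the pace of fatty acid synthesis, fell from 10.27 and 10.43 at baseline to 8.60 at 8 h, with 10.19 at 2 h (−1.75, SE 0.21, adjusted p = 0.00508). A second row for Acaca gave −1.62. Fasn, the fatty acid synthase itself, showed 11.31 and 11.62 at baseline, then 11.17 at 2 h and 10.47 at 8 h (−0.99, SE 0.22, adjusted p = 0.0475). The calls of Fasn and Fads1 were near the threshold: with no filter their adjusted p was 0.101 and 0.083, with a filter at the 60th percentile 0.0606 and 0.0504, and neither reached 2-fold. Their ranges over the alternatives were 0.00477 to 0.101 for Fasn and 0.00702 to 0.083 for Fads1. Acly, which provides cytosolic acetyl-CoA from citrate, stood at −0.94 (SE 0.23, adjusted p = 0.0607). Of the elongases, Elovl6 stood at −0.74 (adjusted p = 0.14), Elovl1 at −0.36 and Elovl5 at −0.20. Acss2, which makes acetyl-CoA from acetate, stood at −0.24, and its 8 h array (9.02) lay between its widely spaced baseline arrays (8.79 and 9.73). The group's median was −0.94, beside −0.16 for all tested genes.

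**Figure D2:**
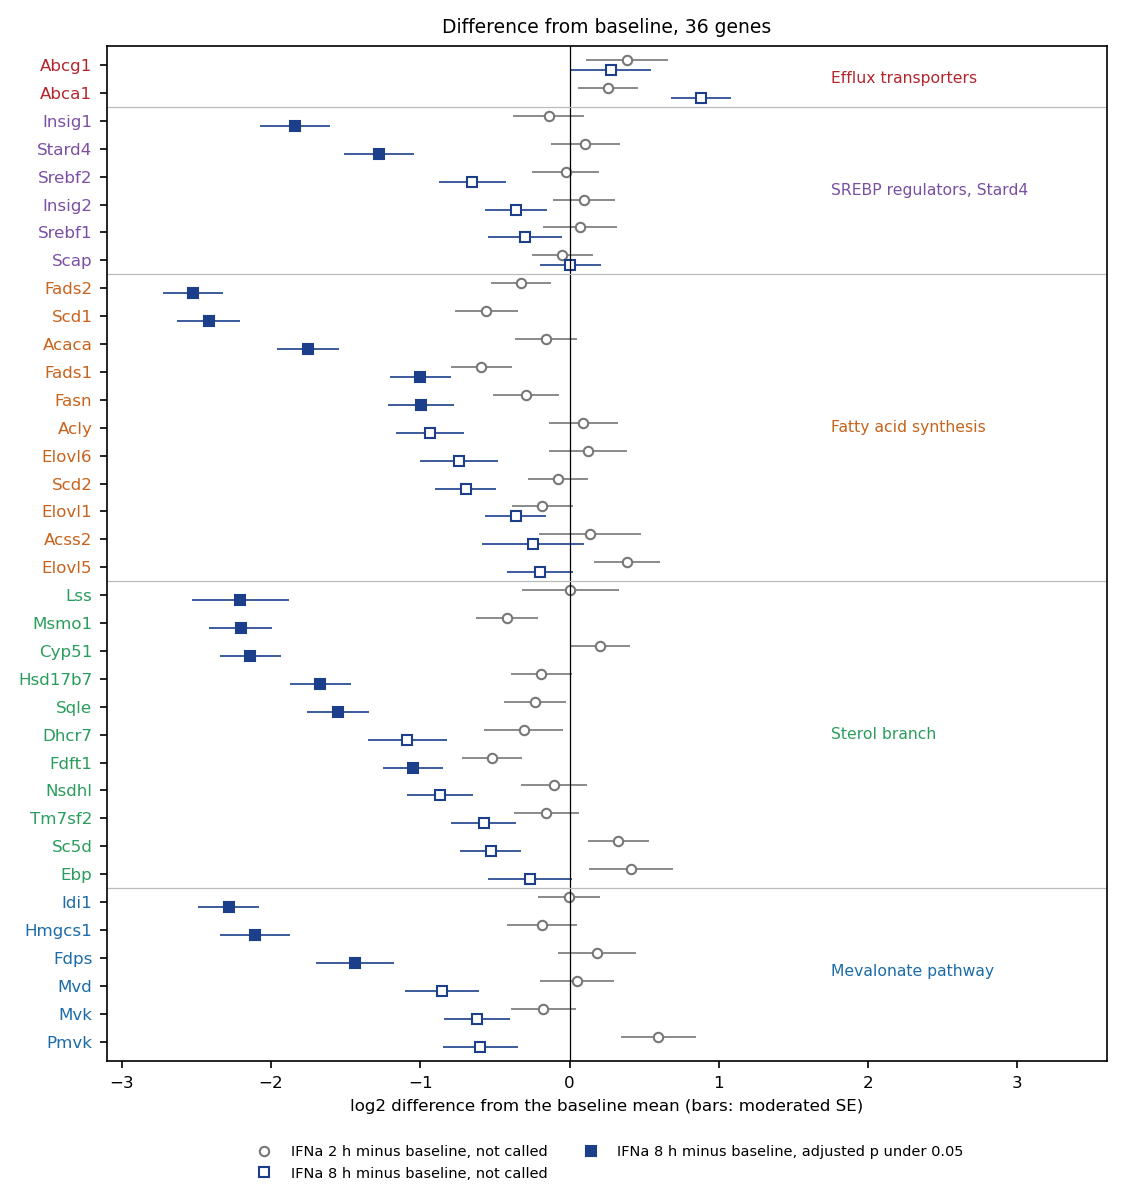
Log2 difference from the baseline mean (horizontal axis) for each of the 36 genes at 2 h (circles) and 8 h (squares) of IFNa, with moderated standard errors as bars and filled symbols for an adjusted p under 0.05. No circle is filled, and the 16 filled squares all lie to the left of 0, from −0.99 for Fasn to −2.53 for Fads2.

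Among the regulators, Insig1 and the carrier Stard4 fell at 8 h, and the other 4 genes did not pass the test. Insig1, the feedback protein that retains SREBPs in the endoplasmic reticulum, had log2 intensities of 10.47 and 10.89 at baseline, then 10.54 at 2 h and 8.84 at 8 h. The 8 h array alone was low. The fall was 3.58-fold (log2 difference −1.84, SE 0.24, adjusted p = 0.00754). Its paralogue Insig2 stood at −0.36 (SE 0.21, adjusted p = 0.311), with 9.29 and 9.45 at baseline and 9.01 at 8 h; whether the paralogues differed was not tested. Stard4, a soluble sterol carrier, fell from 9.22 and 9.61 at baseline to 8.14 at 8 h, with 9.52 at 2 h (−1.28, SE 0.23, adjusted p = 0.0275). The call of Stard4 ended without the filter (adjusted p = 0.06, range over the alternatives 0.00022 to 0.06).

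The transcription factor genes did not pass the test. Srebf2, whose product mainly drives sterol genes, had log2 intensities of 11.34 and 11.67 at baseline, then 11.48 at 2 h and 10.85 at 8 h (−0.65, SE 0.22, adjusted p = 0.133). Srebf1, whose products lean towards fatty acid genes, showed 9.54 and 10.02 at baseline, then 9.85 at 2 h and 9.48 at 8 h (−0.30, SE 0.25, adjusted p = 0.48). Both lay below their baseline arrays at 8 h, Srebf1 by little. Scap, the escort of SREBPs, was level throughout, with 10.46 and 10.57 at baseline, then 10.47 at 2 h and 10.53 at 8 h (a difference near 0, SE 0.20). The median of this group was −0.51 at 8 h.

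The efflux transporters did not share the fall. Abca1, which hands cholesterol to lipid-poor apolipoprotein, had log2 intensities of 7.34 and 7.33 at baseline, then 7.59 at 2 h and 8.22 at 8 h. Both IFNa arrays lay above both baseline arrays, and the 8 h level was 1.84-fold over baseline (log2 difference 0.88, SE 0.20, adjusted p = 0.05004, just over the threshold). It was called higher after quantile normalization (1.03, adjusted p = 0.000516), with an intensity trend (adjusted p = 0.0423) and with the mean of a gene's rows (adjusted p = 0.0483), while the adjusted p ranged from 0.000516 to 0.107 over the alternatives. Abca1 was dim at baseline, under the arrays' medians of 7.61 and 7.52, so its fold may be understated. It passed the brightness filter only through the IFNa arrays, where it was higher, so its test does not stand apart from that choice. Abcg1, which passes cholesterol to high-density lipoprotein, showed 9.79 and 10.41 at baseline, then 10.49 at 2 h and 10.38 at 8 h (0.28, SE 0.27, adjusted p = 0.558). The spread between its baseline arrays was wider than its difference at either time.

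The comparison of 2 h with baseline asks whether the programme moved early. No member passed the test at 2 h in either direction (limma, 0 of 36 lower and 0 higher), where 0.00935% of all tested genes were called lower and 1.09% higher. At an unadjusted p under 0.05, 3 genes of the list were lower and 1 higher, against 2.78% and 9.36% of all tested genes. The lower ones were Fads1 (log2 difference −0.59, SE 0.20), Scd1 (−0.56, SE 0.21) and Fdft1 (−0.52, SE 0.20), and the higher one was Pmvk (0.59, SE 0.25). Fads1 and Scd1 were called lower after quantile normalization (−0.75, adjusted p = 0.0291, range over the alternatives 0.0291 to 0.58; −0.71, adjusted p = 0.0439, range 0.0439 to 0.647). The 2 h array lay below both baseline arrays for 14 of the 36 genes, above both for 8 and between them for 14, against 33% below and 44.5% above among all tested genes. A change of at least 2-fold was seen for 0 of the 36 genes, against 0.0654% lower and 1.77% higher among all tested genes. The median of the 36 genes was −0.04, beside 0.06 for all tested genes.

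By role, the medians at 2 h were 0.02 for the mevalonate enzymes, −0.16 for the sterol branch, −0.16 for fatty acid synthesis, 0.02 for the regulators and 0.32 for the efflux transporters. The signs of the mevalonate and regulator medians turned without baseline replicate 1, to −0.14 for both groups, and stood at 0.16 for both without baseline replicate 2. The sterol median was −0.30 without baseline replicate 1 and −0.02 without baseline replicate 2. For fatty acid synthesis the corresponding values were −0.24 and −0.07, and for the transporters 0.17 and 0.47. The early medians thus moved with the choice of baseline array.

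**Figure D3:**
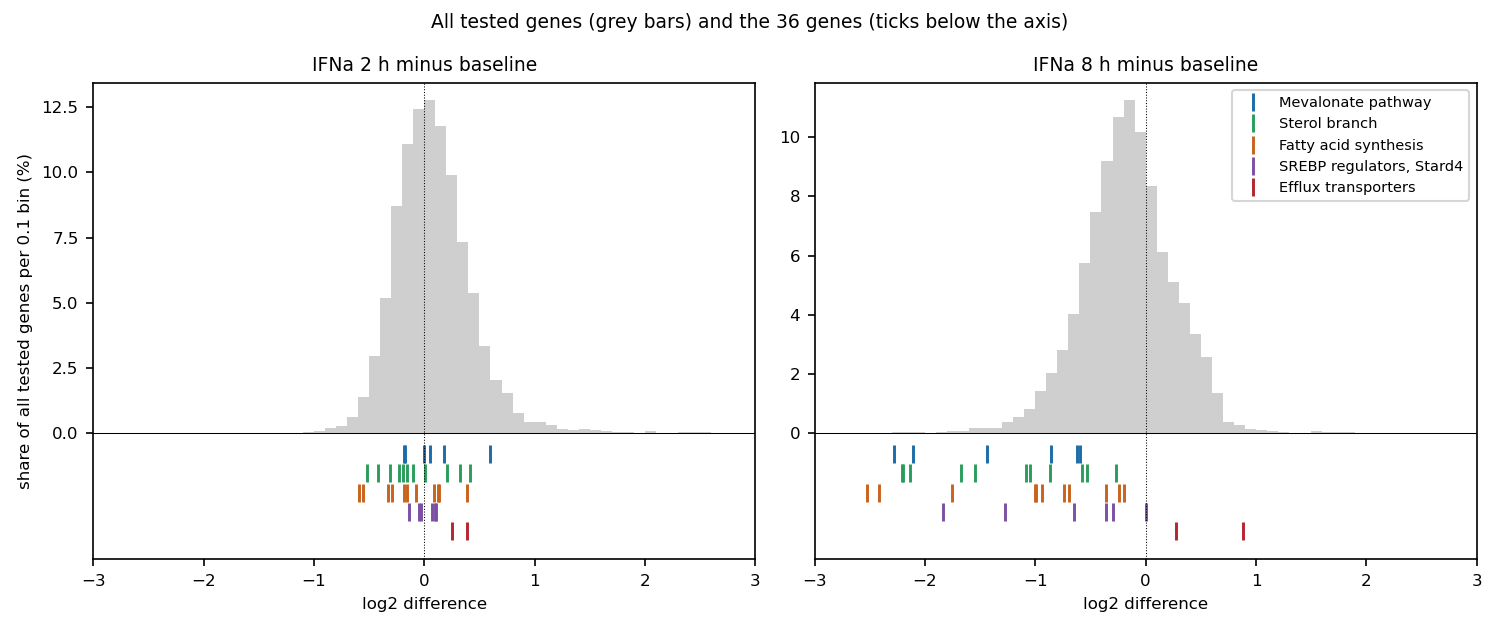
Share of all 10699 tested genes (grey bars, percent per bin of 0.1) by log2 difference from baseline at 2 h (left) and 8 h (right), with the 36 genes as coloured ticks by role below the axis. Below the 5th percentile of all tested genes lie 4 of the 36 at 2 h, where it is −0.41, and 20 of the 36 at 8 h, where it is −0.85.

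The direct comparison of 8 h with 2 h used the same 8 h array and asks how much moved between the times. Of the 36 genes, 15 were lower and 0 higher at 8 h than at 2 h, where 10.8% of all tested genes were called lower and 1.46% higher (limma, adjusted p under 0.05). At an unadjusted p under 0.05, 24 were lower and 1 higher, against 27.4% and 9.01% of all tested genes. At least 2-fold drops were seen for 15 and such rises for 0, against 8.65% and 0.748% of all tested genes. Cyp51 (log2 difference −2.34, SE 0.23, adjusted p = 0.00786), Idi1 (−2.28, SE 0.24, adjusted p = 0.00786), Lss (−2.21, SE 0.38, adjusted p = 0.016) and Fads2 (−2.20, SE 0.23, adjusted p = 0.00789) dropped the most. The other drops that passed, from −1.92 to −1.03, were in Hmgcs1, Scd1, Msmo1, Insig1, Fdps, Acaca, Hsd17b7, Stard4, Sqle, Pmvk and Acly.

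Of the 16 genes lower at 8 h than at baseline, 13 were also lower at 8 h than at 2 h. The 3 that were not were Fdft1 (−0.53, adjusted p = 0.139), Fasn (−0.70, adjusted p = 0.0905) and Fads1 (−0.41, adjusted p = 0.239). For 9 of the 16, these 3 among them, the 2 h array lay below both baseline arrays, against 33% of all tested genes. The 16 were picked as low against the same baseline arrays, and no member passed the test at 2 h. Conversely, Pmvk (−1.19, adjusted p = 0.0371) and Acly (−1.03, adjusted p = 0.0431) passed only against 2 h. Pmvk was above both baseline arrays at 2 h. The calls of Pmvk and Acly ended without the filter (adjusted p = 0.075 and 0.0852, ranges over the alternatives 0.000923 to 0.075 and 0.00415 to 0.0852). The median of the 36 genes was −0.82, beside −0.25 for all tested genes. After quantile normalization these medians were −0.49 and 0.002.

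The baseline arrays themselves differed in these genes. The level was higher in baseline 2 than in baseline 1 for 29 of the 36 genes. The median log2 difference was 0.30, with a range from −0.22 (Scd1) to 0.93 (Acss2). The share of all tested genes that went this way was not counted. In neighbouring lists described below, 14 of 16 fatty acid oxidation genes and 11 of 11 isoprenoid branch genes were also higher in baseline 2. Counts were 5 of 7 for other sterol synthesis and uptake, 8 of 14 for sterol transport and 12 of 24 for other lipid synthesis. The largest gaps after Acss2 were in Lss (0.86), Ebp (0.65) and Abcg1 (0.62). Scd1, Idi1 (−0.15), Fads1 (−0.12), Cyp51 (−0.09), Fads2 (−0.06), Fdft1 (−0.03) and Abca1 (−0.01) went the other way. The gap is part of the standard error of each gene. Without baseline replicate 1 the median of the 36 genes at 8 h was −1.03, beside −0.235 for all tested genes. Without baseline replicate 2 it was −0.74, beside −0.096 for all tested genes.

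Neighbouring pathways were read from 5 further lists, which held 82 genes, 72 with a row of their own and 53 tested. At 8 h 4 of these 53 fell and 0 rose, where 3.35% of all tested genes were called lower, and at 2 h 0 passed. Among other genes of sterol synthesis and uptake, 2 of 5 tested fell: Tmem97, a sterol-regulated membrane protein (log2 difference −1.35, SE 0.275, adjusted p = 0.0383), and Lrp8, a receptor of the low-density lipoprotein receptor family (−1.07, SE 0.21, adjusted p = 0.033). In the isoprenoid branch, which leads from farnesyl diphosphate to prenylated proteins, dolichol and ubiquinone, 1 of 10 tested fell, the prenyltransferase subunit Rabggtb (−1.23, SE 0.22, adjusted p = 0.0244). Of 12 tested genes of other fatty acid and glycerolipid synthesis, 1 fell, the citrate carrier Slc25a1 (−1.30, SE 0.23, adjusted p = 0.0264), which exports the citrate that Acly cleaves. The medians of the measured genes of these lists were −0.18, −0.49 and −0.09. They include dim genes that were not tested, 2 of 7, 1 of 11 and 12 of 24. The median of all tested genes (−0.16) and those of the 36 genes hold tested genes only, so the values are not like for like.

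Among genes of sterol transport and oxysterols, none of 10 tested passed at 8 h (limma, median of 14 measured genes 0.13). The transporter Abcg4 stood at 0.44 (adjusted p = 0.228) and the lipoprotein component Apoe at 0.36 (adjusted p = 0.308). Abcg4 was above the array median at 8 h alone (7.91, against 7.64). It passed the brightness filter only through that array, where it was highest, so its test does not stand apart from that choice. Ch25h, cholesterol 25-hydroxylase, an interferon-induced gene of macrophages, was named after its values were seen. It was dim on every array, with log2 intensities of 5.67 and 5.48 at baseline, then 5.47 at 2 h and 5.75 at 8 h. Fatty acid oxidation, the opposite of synthesis, had 0 of 16 tested genes called at 8 h. Its median was −0.35, beside −0.16 for all tested genes, and 15 of the 16 differences were negative. The dehydrogenase Acadm stood at −0.75 (adjusted p = 0.0944) and the reductase Decr1 at −0.66 (adjusted p = 0.105). The 8 h array lay below both baseline arrays for 13 of these 16, against 55.9% of all tested genes. It did so for 5 of 7 other genes of sterol synthesis and uptake and 8 of 11 of the isoprenoid branch. The counts were 12 of 24 for other fatty acid and glycerolipid synthesis and 2 of 14 for sterol transport and oxysterols. Against 2 h, 6 of the 53 genes fell at 8 h and 0 rose, a share near the 10.8% of all tested genes called lower. They were Tmem97, Lrp8, Rabggtb, Slc25a1, Acadm and Nus1, a subunit of the enzyme that makes dolichol precursors.

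**Figure D4:**
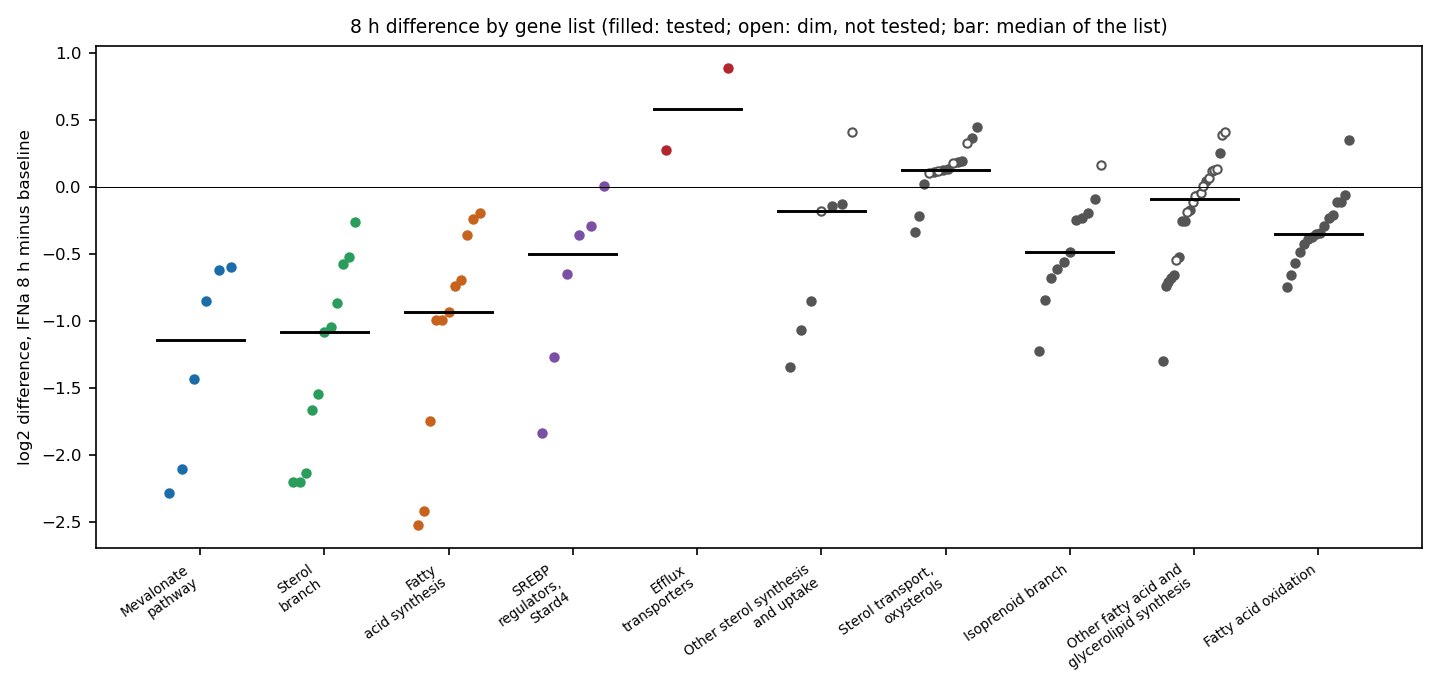
Log2 difference of the 8 h array from the baseline mean (vertical axis) for each measured gene of the 5 role groups (coloured) and of 5 neighbouring lists (grey), with open points for dim genes that were not tested and a bar at each list's median. The medians run from −1.15 for the mevalonate enzymes to 0.58 for the efflux transporters, and fatty acid oxidation has a median of −0.35. Dim genes are included in the medians of the neighbouring lists except fatty acid oxidation, where all 16 genes were tested.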

How the data were processed

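Each of the 4 samples was hybridised to its own Affymetrix gene array. Per the submitters' processing notes, the tools were RMA and Affymetrix Power Tools, without versions. The authors deposited the result as intensity on a linear scale. The set of arrays that entered RMA jointly is not known here. RMA keeps some unspecific signal, which shrinks the folds of dim genes. Log2 of the intensity was taken with no pseudocount.

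Of 24922 rows, 21425 had 1 gene symbol in the platform annotation, 1399 had several and 2098 had none listed; only the first were used, with the highest-mean row of a gene. Genes above the array's median on at least 1 array (10699) were compared in R 4.3.3 by limma 3.58.1, with 1 mean per group, empirical Bayes moderation and a two-sided Benjamini-Hochberg adjusted p. Residual degrees of freedom numbered 1 per gene, since only the baseline group has 2 arrays, with a prior of 7.46 degrees of freedom with an SD of 0.175 on the log2 scale. A difference is called when its adjusted p is under 0.05. Standard errors are the moderated ones. The fit was tried on simulated data in which all 4 arrays varied alike. That trial therefore cannot check the assumption made for the lone IFNa arrays.

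The members and lists were chosen with earlier results of these data known. All members could be named; of the other lists, up to 4 called genes with the largest difference per comparison, or the 2 largest as values where none was called, and the interferon check genes. Alternatives were quantile normalization, centring on array medians, no filter or one at the 60th percentile, an intensity trend, a robust prior, the mean of a gene's rows, log2(value + 32), a 2-fold minimum, an adjusted p under 0.1, and leaving out each baseline array.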

Additional observations from a re-analysis of the deposited data

Results flagged for a closer look

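The change from baseline differed between 2 h and 8 h for 15 of the 36 genes, as tested by the direct comparison of the 8 h with the 2 h array (limma, adjusted p under 0.05, 1 array against 1, with the spread of the baseline arrays). In the mevalonate pathway the log2 differences of 8 h from 2 h were −2.28 for Idi1, −1.92 for Hmgcs1, −1.62 for Fdps and −1.19 for Pmvk. In the sterol branch they were −2.34 for Cyp51, −2.21 for Lss, −1.78 for Msmo1, −1.48 for Hsd17b7 and −1.32 for Sqle. In fatty acid synthesis they were −2.20 for Fads2, −1.86 for Scd1, −1.59 for Acaca and −1.03 for Acly. Insig1 stood at −1.70 and Stard4 at −1.38. All 15 were lower at 8 h, in a comparison in which 10.8% of all tested genes were called lower.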

How the results depend on the processing

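No paired analysis was possible because the IFNa groups hold 1 array each and share only the number 1 with the baseline arrays. Without a baseline array no residual degrees of freedom remain, so those settings give values with no test. The number of genes lower at 8 h than at baseline was 11 to 21 over the alternatives, beside 0.511% to 8.42% of all tested genes, and none of the 16 called genes changed sign in any of them; the number lower than at 2 h was 13 to 22, beside 2% to 21.7%. After quantile normalization 2 genes were lower at 2 h, and 1 gene, Abca1, was higher at 8 h than at baseline and than at 2 h. Abca1 was also the 1 gene higher than baseline with an intensity trend, with the mean of rows and at an adjusted p under 0.1, where 1 gene was higher than at 2 h. Medians that turned at 2 h were those of the mevalonate enzymes (−0.10) and the regulators (−0.11) after quantile normalization, and that of all members with centred arrays (0.061); the sterol median there moved to −0.057. At 8 h quantile normalization moved the medians to −0.93 (mevalonate), −0.92 (sterol) and −0.71 (fatty acid). Against 2 h it moved them to −1.18, −0.56 and −0.48, the regulators to −0.21 and all members to −0.49, while centring moved the first 3 to −1.59, −1.03 and −0.88. Leaving out each baseline array in turn, the medians at 2 h ranged from −0.14 to 0.16 (mevalonate), −0.30 to −0.015 (sterol), −0.14 to 0.16 (regulators) and −0.215 to 0.057 (all members). At 8 h they ranged from −1.41 to −0.89 (mevalonate), −1.37 to −1.06 (sterol), −1.02 to −0.75 (fatty acid) and −1.03 to −0.74 (all members). The causes of these shifts were not tested. Signal over background limits what can be said of Abca1 and of the dim genes of the neighbouring lists.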
